A study of Mus musculus with 8 samples.

Results

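Inflammasomes are cytosolic protein complexes that turn the detection of microbes or cell damage into cell death and cytokine release. The 7 genes described here carry that sequence of events. They were listed by this role, with earlier results of these data known, and make up 7 of the 27998 genes in the count tables. They are the sensor *Nlrp3*, the adaptor *Pycard* (ASC), the inflammatory caspases *Casp1* and *Casp4* (the mouse protein of *Casp4* is caspase-11), the pore-forming executioner *Gsdmd*, and the cytokines *Il1b* and *Il18*.

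In the canonical route, a sensor such as NLRP3 gathers ASC, which recruits and activates caspase-1, and caspase-1 then matures IL-1β and IL-18 and cleaves gasdermin D. In the non-canonical route, caspase-11 binds bacterial lipopolysaccharide in the cytosol and cleaves gasdermin D directly. Type I interferon is known to raise the transcription of several components of these routes, and inflammasome activation can kill hematopoietic progenitors by pyroptosis.

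Wildtype mice 12 to 14 weeks old received IFNα subcutaneously at 50000 IU per 20 g body weight, or 100 µl PBS as the control, and bone marrow was collected 3, 24, or 72 h after IFNα. Each time point was a single 10x library of Lin- c-Kit+ cells, to which sorted Lin- c-Kit+ CD150+ CD48- CD34- hematopoietic stem cells (HSCs) had been added, and antibody hashtags separated its 4 mice. After the study's own filters, 2474 control cells and 1661, 3462, and 2449 cells at 3, 24, and 72 h remained. The mouse was the replicate: unique molecular identifiers (UMIs) were summed per mouse, and per mouse and cell class.

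The summed UMIs per mouse ranged from 1102706 to 26446327, and control mouse 4, with 58 cells, was the smallest of the 16. That mouse had enough cells for the myeloid class alone, so the other classes have 3 control mice. Time point and library cannot be told apart in this design, and the 3 h library was the shallowest, with a median of 12017 UMIs per cell against 18964.5 in the control library and 17.2% of its barcodes without a hashtag against 5.20%. Levels are given as CPM, UMI counts scaled to a common library size after normalization by the trimmed mean of M values (TMM). A gene is called higher or lower when its Benjamini-Hochberg adjusted p in edgeR's quasi-likelihood test is under 0.05. Where mice of different groups are said not to overlap, this describes the listed values, and the share of all genes without overlap was not counted.

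Of these 7 genes, 3 lie on chromosome 9 of GRCm38, 2 of them side by side. *Casp1* (chr9:5298517-5307265, plus strand) ends 1562 bases before *Casp4* begins (chr9:5308828-5336783, plus strand), and *Il18* is farther along the same chromosome (chr9:50554827-50581840, plus strand). The longest exact stretch shared by the annotated transcripts of *Casp1* and *Casp4* was 12 bases, and that shared by *Casp4* and the neighboring *Casp12* was 21 bases. *Gsdmd* is at chr15:75862327-75867408 (plus strand) and *Nlrp3* at chr11:59541568-59566956 (plus strand). *Pycard* (chr7:127989708-127993867, minus strand), *Il1b* (chr2:129364570-129371139, minus strand), and *Il18* overlap annotated genes on the opposite strand.

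*Casp1*, *Casp4*, and *Il18* are the members that changed most after IFNα, and the starts of their promoters are shown because these are the sequences upstream of the largest changes. The sequences are from RefSeq on GRCm38.p6, 250 bases before the transcription start to 50 bases from it, plus strand, 5′ to 3′. The single capital letter is the first transcribed base, and runs of capitals are matches to the kappa B motif (GGG, any 3 bases, TTCC) on either strand.
Casp1, chr9:5298267-5298566: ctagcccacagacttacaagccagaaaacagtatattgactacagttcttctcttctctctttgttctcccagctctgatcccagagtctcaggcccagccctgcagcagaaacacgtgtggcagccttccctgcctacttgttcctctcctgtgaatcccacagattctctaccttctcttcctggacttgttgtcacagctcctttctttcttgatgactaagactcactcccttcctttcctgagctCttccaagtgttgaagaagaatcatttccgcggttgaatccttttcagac
Casp4, chr9:5308599-5308898: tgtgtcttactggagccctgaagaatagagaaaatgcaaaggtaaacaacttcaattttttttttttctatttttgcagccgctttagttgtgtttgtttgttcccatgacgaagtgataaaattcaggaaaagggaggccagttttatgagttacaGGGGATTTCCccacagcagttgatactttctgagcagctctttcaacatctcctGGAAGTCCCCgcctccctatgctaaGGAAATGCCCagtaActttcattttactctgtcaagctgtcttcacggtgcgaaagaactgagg
Il18, chr9:50554450-50554749: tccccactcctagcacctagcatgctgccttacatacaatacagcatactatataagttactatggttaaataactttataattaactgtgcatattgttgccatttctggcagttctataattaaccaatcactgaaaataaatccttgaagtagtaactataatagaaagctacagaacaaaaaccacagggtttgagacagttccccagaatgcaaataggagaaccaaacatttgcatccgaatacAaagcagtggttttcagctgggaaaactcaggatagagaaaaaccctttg

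Promoter entries existed for 6 of the 7 genes, 8 entries in all, and *Gsdmd* had none. The *Il18* start used here lies 127 bases from the nearest annotated GENCODE start. No entry held the core of the interferon-stimulated response element (GAAA, any 2 bases, GAAA, both strands, in 3.44% of 32851 mouse promoters of this length) or the gamma-activated sequence (TTC, any 3 bases, GAA, in 8.3%). The kappa B motif, searched only after the sequences had been seen, was in 5.56% of promoters. *Casp4* held 3 matches, starting 93, 39, and 14 bases before the first transcribed base, and 3 or more matches were present in 7 of the 32851 promoters, both *Casp4* entries among them. These are letter matches in a short window, and the absence of a match says nothing of sites outside it.

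In the whole sorted compartment, 4 of the 7 genes were higher at 3 h and none was lower: *Casp4*, *Il18*, *Casp1*, and *Gsdmd*. At 24 h, *Casp4*, *Il18*, and *Casp1* were still higher and *Pycard* was lower, and at 72 h *Casp4* and *Il18* were higher and *Pycard* lower. The sensor *Nlrp3* and the cytokine *Il1b* did not pass the test at any time. Of the 12042 genes tested, the share called was 38.8% (3 h), 28.3% (24 h), and 37.4% (72 h), and the share called higher was 19.7%, 14.5%, and 18.9%, so calls were common in this compartment. With scaling by library size alone in place of TMM, the median log2 difference of all genes at 3 h was -0.18 and not -0.03, 25.6% of the called genes were higher and not 50.7%, and *Pycard* was also called lower at 3 h (-0.28, adjusted p = 0.000131).

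*Casp4* is the sensor and protease of the non-canonical route. Its level was 12.7, 12.3, 11.2, and 14.8 CPM in the 4 control mice, and 61.6, 48.6, 65.7, and 53.1 CPM at 3 h. All 4 mice at 3 h stood far above every control. At 24 h the level was 18.3, 21.1, 17.3, and 16.9 CPM and at 72 h 17.0, 16.4, 13.8, and 16.7 CPM, so that every mouse at 24 h and 3 of 4 at 72 h remained above the highest control. The log2 fold change against control was 2.25 ± 0.10 (SE; adjusted p = 2.22e-14, edgeR's quasi-likelihood test) at 3 h, 0.61 ± 0.10 (adjusted p = 0.000119) at 24 h, and 0.39 ± 0.11 (adjusted p = 0.0076) at 72 h.

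*Il18*, whose product needs caspase-1 to become active, followed nearly the same course. Control mice had 6.78, 5.62, 5.53, and 6.96 CPM, mice at 3 h 34.5, 28.3, 32.1, and 25.9 CPM. The groups were separated by a wide gap, from 342 UMIs in all control mice together and 673 in the mice at 3 h. The later values were lower but also above every control mouse, at 9.25, 10.8, 10.3, and 7.68 CPM at 24 h and 7.45, 9.42, 9.11, and 8.45 CPM at 72 h. The log2 fold changes were 2.33 ± 0.12 (adjusted p = 4.21e-13, edgeR's quasi-likelihood test), 0.66 ± 0.12 (adjusted p = 0.000383), and 0.50 ± 0.14 (adjusted p = 0.00566) at 3, 24, and 72 h.

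*Casp1*, the protease of the canonical route, rose less. Control mice had 34.5, 31.2, 32.1, and 19.1 CPM, the last value from 22 UMIs of control mouse 4. The 4 mice at 3 h lay close together at 52.7, 52.3, 53.3, and 52.1 CPM, and those at 24 h at 37.3, 41.1, 38.1, and 37.5 CPM, all above every control. At 72 h the level (30.9, 32.0, 33.2, and 30.3 CPM) overlapped that of the controls. The log2 fold change was 0.72 ± 0.072 (adjusted p = 3.32e-08, edgeR's quasi-likelihood test) at 3 h, 0.27 ± 0.066 (adjusted p = 0.00341) at 24 h, and -0.02 (adjusted p = 0.879) at 72 h.

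**Figure D1:**
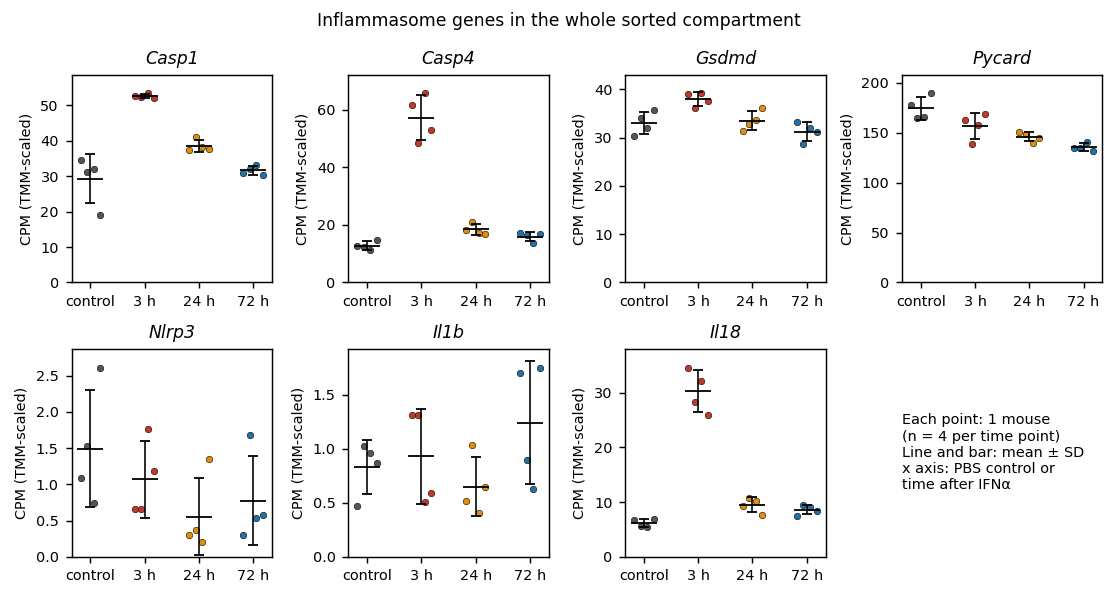
Level of each of the 7 genes in the whole sorted compartment (CPM, TMM-scaled, y axis from 0) in PBS controls and at 3, 24, and 72 h after IFNα; each point is 1 mouse (n = 4 per time point), lines and bars show mean ± SD. *Casp4*, *Il18*, *Casp1*, and *Gsdmd* peak at 3 h, *Pycard* is lowest at 72 h, and the few UMIs of *Nlrp3* and *Il1b* give wide overlapping spreads.

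*Gsdmd*, which forms the membrane pore of pyroptosis, showed the smallest of the increases. Controls had 30.4, 34.1, 31.9, and 35.6 CPM and mice at 3 h 39.1, 36.2, 39.2, and 37.6 CPM. The ranges did not overlap, by a margin of less than 1 CPM. Its log2 fold change at 3 h was 0.24 ± 0.067 (adjusted p = 0.00733, edgeR's quasi-likelihood test), and with scaling by library size alone in place of TMM it was 0.09 (adjusted p = 0.268). It was 0.06 (adjusted p = 0.509) at 24 h and -0.04 (adjusted p = 0.685) at 72 h.

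*Pycard*, which encodes the adaptor that links sensor to caspase-1, moved the other way. Controls had 178, 165, 165, and 190 CPM. The level at 24 h was 151, 149, 140, and 145 CPM and at 72 h 135, 134, 141, and 132 CPM, each mouse below every control. At 3 h (163, 139, 157, and 169 CPM) 3 of 4 mice were below every control. The log2 fold change was -0.13 ± 0.052 (adjusted p = 0.0537, edgeR's quasi-likelihood test) at 3 h, -0.23 ± 0.049 (adjusted p = 0.0012) at 24 h, and -0.34 ± 0.050 (adjusted p = 1.71e-05) at 72 h.

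Values summed over the whole compartment mix the level per cell with the makeup of the cells, and fewer cells of a type and less RNA per cell cannot be told apart in them. The myeloid progenitor-like class, in which *Pycard* was highest, made up 28.6% of kept cells in controls and 15.3%, 19.2%, and 14.6% at 3, 24, and 72 h. The HSC-like class rose from 7.80% to 13.7%, 10.1%, and 11.8% and the LMPP-like class from 14.4% to 22.3%, 17.9%, and 21.5%. *Il18* was highest in these last classes. The shares also depend on how many sorted HSCs were added to each library, and their part in the summed changes was not tested.

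Between 3 and 24 h, *Casp4* fell by 1.64 on the log2 scale (adjusted p = 1.54e-12, edgeR's quasi-likelihood test), *Il18* fell by 1.67 (adjusted p = 3.08e-11), *Casp1* fell by 0.45 (adjusted p = 2.17e-05), and *Gsdmd* fell by 0.18 (adjusted p = 0.0366), against 28.5% of all genes called and 16.3% lower. The decrease of *Gsdmd* did not pass the test in 9 of 19 alternatives, 6 of them without mouse 1, 2, or 3 at 24 h or mouse 1, 3, or 4 at 3 h (between -0.15 and -0.19, adjusted p = 0.058 to 0.123). Between 24 and 72 h, *Casp1* was the 1 member called, and it fell by 0.29 (adjusted p = 0.00604), where 9.08% of genes were called. After thinning to 5000 UMIs per cell this call was lost (-0.34, adjusted p = 0.0901) and *Pycard* was called lower (-0.20, adjusted p = 0.0462). Each comparison with control shares the same 4 control mice, and the steps share the mice at 3 and 24 h.

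*Nlrp3* and *Il1b* were barely detected. *Nlrp3* had 168 UMIs in all 16 mice, and its counts were 21, 27, 14, and 3 in the control mice, 3, 3, 14, and 6 at 3 h, 4, 10, 3, and 29 at 24 h, and 4, 15, 6, and 6 at 72 h. Scaled to depth, controls ranged from 0.744 to 2.61 CPM and mice at 24 h from 0.202 to 1.34 CPM, the highest of them mouse 4. At 24 h the log2 fold change was -0.97 ± 0.48 (adjusted p = 0.146, edgeR's quasi-likelihood test), and without mouse 4 at 24 h it was -1.90 (adjusted p = 0.00659). With all mice kept and the hashtag number as a block it was -1.35 (adjusted p = 0.0384). The myeloid progenitor-like class held 103 of the 168 UMIs, and its share of kept cells was 19.2% at 24 h against 28.6% in controls. The part of that share in the *Nlrp3* values was not tested.

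*Il1b* had 176 UMIs, with 9, 18, 18, and 1 in controls, 6, 6, 4, and 3 at 3 h, 7, 28, 6, and 14 at 24 h, and 23, 8, 7, and 18 at 72 h. The groups overlapped at every time. Its log2 fold change was 0.10 at 3 h (adjusted p = 0.902), -0.22 at 24 h (adjusted p = 0.713), and 0.64 ± 0.38 at 72 h (adjusted p = 0.197), all by edgeR's quasi-likelihood test.

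The cells were then divided into classes by clustering the control cells and transferring the labels to the treated cells, with the 7 genes left out of the transfer. Classes are called by the markers that define them: HSC-like, lymphoid-primed multipotent progenitor-like (LMPP-like), myeloid progenitor-like, erythroid progenitor-like, and megakaryocyte (MK) progenitor-like. In every class and time point most of its markers were highest in that class, for instance 16 of 17 myeloid markers at 3 h. The lowest share was 5 of 8 LMPP-like markers at 3 h. The clusters had been named from these same lists, so these counts are no independent check of the labels. The genes that led the HSC-like class in control cells were *Jchain*, *Cd79a*, *Mzb1*, *Ebf1*, and *Vpreb3*, genes of B-lineage cells, with 3 HSC markers among the first 10. Without the 4 of 193 control cells that held 2 or more B-lineage UMIs, none of these was among the first 10, which then held 5 HSC markers. Clusters 2, 7, and 9, which had no marker of their nearest class among their first 10 genes, stayed unnamed and outside all classes: 2807 cells, 25.8 to 29.0% of the kept cells of a time point, with 20.8% of all *Il18*, 23.8% of all *Nlrp3*, and 11.9% of all *Il1b* UMIs. Each class had members that rose at 3 h, and none that fell. The HSC-like class had 3 of 5 tested (12% of all its genes were called, 8.92% higher), the LMPP-like class 4 of 5 (17.6% called, 11.4% higher), and the myeloid class 3 of 5 (24.3% called, 13.7% higher). The erythroid class had 3 of 4 (13.3% called, 9.36% higher) and the MK class 3 of 6 (10.9% called, 8.48% higher). With scaling by library size alone, 27.1 to 36.8% of the called genes were higher in the 5 classes and not 56.5 to 78%, and *Pycard* was then called lower in the myeloid class (-0.21, adjusted p = 0.0225).

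*Casp4* rose in all 5 classes at 3 h. In the HSC-like class the 3 control mice had 22.3, 34.2, and 22.1 CPM and the 4 mice at 3 h 119, 68.6, 143, and 129 CPM, a log2 fold change of 2.24 ± 0.27 (adjusted p = 1.08e-08, edgeR's quasi-likelihood test). In the myeloid class the 4 controls had 9.97, 9.11, 10.9, and 16.1 CPM and mice at 3 h 49.8, 33.4, 37.3, and 33.2 CPM, a log2 fold change of 1.92 ± 0.15 (adjusted p = 1.51e-12). No mouse at 3 h overlapped the controls in any class. LMPP-like cells had a log2 fold change of 2.12 ± 0.15, erythroid cells of 3.06 ± 0.46, and MK cells of 1.24 ± 0.20, and each differed from 0 by the same test (highest adjusted p = 9.6e-06).

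Among control mice, *Casp4* was at 26.2 ± 6.96 CPM (SD, n = 3) for HSC-like, 26.2 ± 8.24 CPM for MK, 22.9 ± 3.15 CPM for LMPP-like, 11.5 ± 3.15 CPM (n = 4) for myeloid, and 2.18 ± 0.739 CPM for erythroid cells. The first 3 overlapped, and the myeloid and erythroid values lay below them and apart from each other. CPM were scaled within each class separately, so the order across classes is approximate. At 24 h, *Casp4* was called higher in the myeloid class (16.3, 15.4, 17.1, and 15.4 CPM, log2 fold change 0.65 ± 0.13, adjusted p = 0.000719, edgeR's quasi-likelihood test), where 2 of 4 mice exceeded the highest control. In the erythroid class it was at 5.01 ± 2.16 CPM at 24 h, a log2 fold change of 1.18 ± 0.46 (adjusted p = 0.101), which passed with a likelihood ratio test on these time points alone (1.19, adjusted p = 0.0409). At 72 h *Casp4* was called in no class and in none of the 11 clusters tested, unlike in the whole compartment. Its log2 fold change then ran from -0.10 ± 0.25 in cluster 2 to 0.99 ± 0.42 in cluster 7. The part of the changed class shares in the summed level at 72 h was not tested.

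*Casp1* was highest in the myeloid class of control mice (45.7 ± 4.67 CPM, n = 4), followed by the LMPP-like (28.3 ± 1.06 CPM, n = 3), HSC-like (22.4 ± 3.27 CPM), MK (16.7 ± 0.959 CPM), and erythroid classes (3.17 ± 0.739 CPM), and the ranges of neighbors in this order did not overlap. At 3 h the HSC-like class had 86.6, 62.7, 64.7, and 59.0 CPM against 22.3, 25.7, and 19.1 CPM in controls. Every mouse at 3 h stood well above the highest control of that class. In the myeloid class the 3 h values were 58.4, 81.4, 74.2, and 70.0 CPM against 48.8, 45.7, 49.2, and 39.1 CPM, a smaller step that also did not overlap.

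*Casp1* rose at 3 h by 1.60 ± 0.26 on the log2 scale in HSC-like cells (adjusted p = 1.18e-05, edgeR's quasi-likelihood test) and by 1.11 ± 0.16 in LMPP-like cells (adjusted p = 1.13e-06). The rise was 0.56 ± 0.085 among myeloid cells (adjusted p = 3.96e-06; 0.37 and adjusted p = 0.274 after thinning to 5000 UMIs per cell), 2.47 ± 0.43 among erythroid cells (adjusted p = 7.63e-05), and 1.28 ± 0.26 among MK cells (adjusted p = 0.000315). The levels of the HSC-like (68.2 CPM), LMPP-like (60.4 CPM), and myeloid classes (71.0 CPM) overlapped at 3 h. The erythroid values rest on few UMIs: 10, 8, and 7 in controls and 4, 18, 15, and 5 at 3 h. In those cells the granule genes *Mpo* and *Elane*, which mark the myeloid class, had lower means at 3 h (19.0 and 17.8 CPM, not TMM-scaled) than in controls (36.1 and 42.4 CPM), and *Casp1* was above every control in all 4 mice. The part of RNA from other cells in these values was not tested. In the erythroid cluster 10 alone, *Casp1* rose by 2.01 ± 0.42 (adjusted p = 0.000288, edgeR's quasi-likelihood test) and *Casp4* by 2.36 ± 0.46 (adjusted p = 0.000116). Neither gene was tested in cluster 12, which held 87 of 246 erythroid cells in controls and 24 of 117 at 3 h. The part of this change of mix in the values of the erythroid class was not tested.

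**Figure D2:**
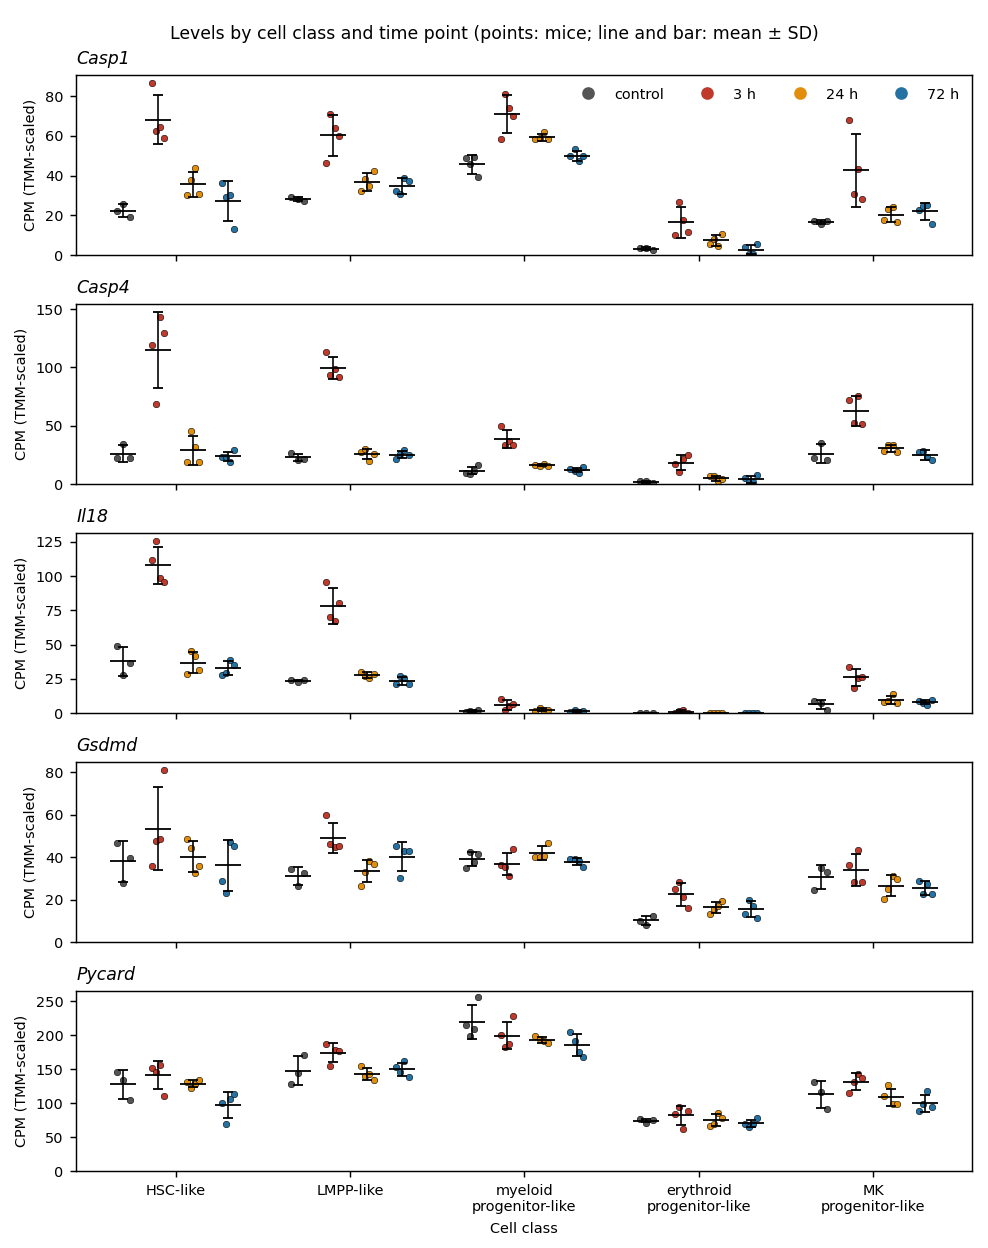
Level of *Casp1*, *Casp4*, *Il18*, *Gsdmd*, and *Pycard* (CPM, TMM-scaled within each class, y axes from 0) in 5 cell classes in controls and at 3, 24, and 72 h after IFNα; each point is 1 mouse (n = 3 or 4), lines and bars show mean ± SD. At 3 h every mouse lies above the controls for *Casp1* and *Casp4* in all 5 classes, and *Il18* is carried by the HSC-like and LMPP-like classes. The share of all genes without overlap was not counted.

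Whether a class responded differently from the myeloid class was tested directly, as the interaction of class and time in a fit over 10692 genes with the mouse as a block. *Casp1* rose more in the HSC-like class at 3 h, by 1.09 ± 0.30 on the log2 scale (adjusted p = 0.0317, edgeR's quasi-likelihood test; 2.02% of genes called), and more in the erythroid class, by 1.82 ± 0.41 (adjusted p = 0.00217; 4.44% called). The difference for the LMPP-like class was 0.58 ± 0.22 (adjusted p = 0.202; 2.06% called) and for the MK class 0.75 ± 0.28 (adjusted p = 0.268; 0.739% called). The HSC-like difference did not pass the test in 6 of 21 alternatives, among them those without control mouse 1 or 3 or mouse 1 or 3 at 3 h (between 0.94 and 1.17, adjusted p = 0.0763 to 0.145), and the erythroid difference in 1 of 21, after cells were thinned to 5000 UMIs. The part of the changed cluster mix of the erythroid class in the *Casp1* difference was not tested. No difference passed the test for *Casp4*, where it ranged from -0.62 ± 0.27 in the MK class (adjusted p = 0.393) to 1.06 ± 0.46 in the erythroid class (adjusted p = 0.212).

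*Gsdmd* rose at 3 h in the LMPP-like class, from 34.7, 26.6, and 32.6 CPM to 59.7, 46.2, 44.7, and 45.2 CPM (log2 fold change 0.62 ± 0.17, adjusted p = 0.00961, edgeR's quasi-likelihood test), and in the erythroid class, from 10.3, 8.38, and 12.3 CPM to 24.9, 28.5, 21.2, and 16 CPM (1.13 ± 0.26, adjusted p = 0.00279). In both classes no treated mouse overlapped the controls, and the share of all genes without overlap was not counted. Of the LMPP-like clusters, the rise was called in cluster 5 (0.56 ± 0.20, adjusted p = 0.0379) and not in cluster 11 (0.34 ± 0.41, adjusted p = 0.723). Cluster 11 held 126 of 357 LMPP-like cells in controls and 58 of 371 at 3 h. The part of this change of mix in the LMPP-like rise was not tested. Of the erythroid clusters, the rise was called in cluster 12 (1.78 ± 0.53, adjusted p = 0.0284), which held 87 of 246 erythroid cells in controls and 24 of 117 at 3 h, and not in cluster 10 (0.57 ± 0.33, adjusted p = 0.334), which held the rest. In the myeloid class its values at 3 h (36.5, 35.5, 31.2, and 44.0 CPM) spanned those of the controls (35.0, 42.4, 37.9, and 41.4 CPM), with a log2 fold change of -0.07 ± 0.11 (adjusted p = 0.722). The response of *Gsdmd* in the erythroid class exceeded that in the myeloid class by 1.12 ± 0.31 (adjusted p = 0.0166), which did not pass the test in 4 of 21 alternatives, 3 of them without control mouse 2 or mouse 2 or 3 at 3 h (0.96, 0.99, and 1.12, adjusted p = 0.0689, 0.116, and 0.076). The LMPP-like rise did not pass with library size alone (0.43, adjusted p = 0.0628), after thinning to 5000 UMIs (0.73, adjusted p = 0.057), or without control mouse 2 (0.53, adjusted p = 0.0571). For the LMPP-like class the difference was 0.75 ± 0.22 (adjusted p = 0.0578).

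In control mice, *Gsdmd* was at 39.2 ± 3.4 CPM among myeloid, 38.1 ± 9.55 CPM among HSC-like, 31.3 ± 4.17 CPM among LMPP-like, and 30.8 ± 5.54 CPM among MK cells, and at 10.3 ± 1.95 CPM among erythroid cells, below all of them. The range of HSC-like mice overlapped those of the other 3 higher classes. The lowest myeloid mouse (35.0 CPM) lay just above the highest LMPP-like (34.7 CPM) and MK mice (34.9 CPM). Without TMM, the lowest myeloid mouse (36.7 CPM) was below the highest LMPP-like mouse (37.0 CPM) and above the highest MK mouse (36.3 CPM). *Pycard* was at 219.8 ± 24.7 CPM in the myeloid class, above the LMPP-like (147.9 ± 21.2 CPM), HSC-like (128.3 ± 21.2 CPM), and MK classes (113.5 ± 20.1 CPM), which overlapped, and at 74.7 ± 2.57 CPM in the erythroid class. *Pycard* did not pass the test in any class at 3 or 24 h, with log2 fold changes between -0.13 and 0.23. Outside the classes, *Pycard* was called lower at 24 h in the unnamed cluster 2, 1 of 12 clusters tested. Its log2 fold change there was -0.32 ± 0.076 (adjusted p = 0.00522, edgeR's quasi-likelihood test; 6.45% of genes called). At 72 h it was lower in the myeloid class, at 205, 192, 176, and 169 CPM against 215, 199, 209, and 256 CPM (log2 fold change -0.18 ± 0.064, adjusted p = 0.049, edgeR's quasi-likelihood test; 14.6% of genes called), a call lost in 19 of 27 alternatives, without any 1 control mouse among them (adjusted p = 0.0641 to 0.188). In the HSC-like class it was at -0.37 ± 0.15 at 72 h (adjusted p = 0.248).

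*Il18* was expressed in the most immature classes. In controls it was at 37.8 ± 10.5 CPM in the HSC-like and 23.8 ± 0.631 CPM in the LMPP-like class, 6.41 ± 3.41 CPM in the MK, 1.52 ± 0.661 CPM in the myeloid, and 0.233 ± 0.202 CPM in the erythroid class, without overlap between neighbors; the erythroid value rests on 2 UMIs. At 3 h the HSC-like class had 112, 125, 98.4, and 95.9 CPM against 48.8, 27.8, and 36.8 CPM (log2 fold change 1.42 ± 0.20, adjusted p = 8.51e-07, edgeR's quasi-likelihood test). The LMPP-like class had 96.0, 69.9, 67.4, and 80.1 CPM against 24.3, 23.1, and 24.0 CPM (1.68 ± 0.15, adjusted p = 6.09e-11). In both, all treated mice were above every control. The LMPP-like class joined clusters 5 and 11, and cluster 11 had *Iigp1* and *Ifit1* among its leading genes in control cells. Cluster 11 held 126 of 357 LMPP-like cells in controls and 58 of 371 at 3 h. Pooled over mice without TMM, *Il18* went from 30.0 to 78.3 CPM in cluster 5 and from 15.3 to 24.0 CPM in cluster 11. Within cluster 5 its log2 fold change at 3 h was 1.57 ± 0.17 (adjusted p = 5.49e-10, edgeR's quasi-likelihood test; 17.5% of genes called). It was not tested in cluster 11. The part of this change of mix in the LMPP-like values was not tested.

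The MK class rose from 9.19, 7.43, and 2.60 CPM to 34.0, 18.3, 25.8, and 26.6 CPM of *Il18* (log2 fold change 1.90 ± 0.33, adjusted p = 4.51e-05, edgeR's quasi-likelihood test). In the myeloid class the change was 2.30 ± 0.42 (adjusted p = 7.67e-05) at 3 h and 1.12 ± 0.37 (adjusted p = 0.0339) at 24 h, but its UMIs at 3 h were 16, 2, 10, and 11, so the fold is large and the level low. The neutrophil-directed cluster 8 held 180 of 707 myeloid cells in controls, 17 of 254 at 3 h, and 59 of 663 at 24 h. *Il18* at these times, pooled over mice without TMM, was at 1.33, 3.77, and 1.34 CPM in cluster 1. In the monocyte-directed cluster 4 it was at 2.32, 8.36, and 4.41 CPM, and in cluster 8 at 0.158, 0, and 0.465 CPM. The part of this change of mix in the myeloid values was not tested. After each cell was thinned to 5000 UMIs, 5 of 254 myeloid cells had an *Il18* UMI at 3 h and 1 of 707 in controls. Of erythroid cells, 2 of 115 had an *Il18* UMI at 3 h after thinning. The same thinned shares were 33.9 ± 5.83% of HSC-like cells at 3 h against 19.1 ± 6.21% in controls, and 29.4 ± 6.92% against 14.0 ± 2.60% of LMPP-like cells. Without thinning they were 46.1 ± 9.03% against 31.8 ± 7.29% and 42.3 ± 6.09% against 23.7 ± 2.90%. Unthinned and pooled over mice, 33 of 254 myeloid cells had an *Il18* UMI at 3 h against 29 of 707 in controls, and 3 of 117 erythroid cells against 2 of 246. Thinning left out 35, 61, 35, and 68 cells below 5000 UMIs of the control library and the libraries at 3, 24, and 72 h.

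At 24 and 72 h, *Il18* was back near control in the classes that carried it: the log2 difference was -0.06 ± 0.21 and -0.27 ± 0.23 in the HSC-like class (adjusted p = 0.959 and 0.715, edgeR's quasi-likelihood test) and 0.21 ± 0.16 and -0.01 ± 0.17 in the LMPP-like class (adjusted p = 0.566 and 0.992). Over the same times its level in the whole compartment was still called higher, as given above. The HSC-like and LMPP-like shares of kept cells were also above control then, and their part in the summed level was not tested. When all cells were thinned to 5000 UMIs, the whole-compartment change of *Il18* was 0.34 at 24 h (adjusted p = 0.254) and 0.40 at 72 h (adjusted p = 0.168). No member was called in the HSC-like, LMPP-like, or MK class at 24 or 72 h, where 2.49% and 2.66%, 4.82% and 4.67%, and 3.51% and 4.07% of all genes were, nor in the erythroid class at 72 h (5.12% of genes).

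The myeloid and erythroid classes still had higher members at 24 h: *Casp1*, *Casp4*, and *Il18* of 5 tested in the myeloid class (15.2% of genes called, 8.72% higher), and *Casp1* and *Gsdmd* of 4 in the erythroid class (9.94% called, 5.84% higher). *Casp1* in the myeloid class was at 58.3, 58.8, 62.1, and 58.6 CPM, all above the controls (log2 fold change 0.31 ± 0.066, adjusted p = 0.000854, edgeR's quasi-likelihood test). In the erythroid class *Casp1* was at 5.79, 8.20, 4.81, and 10.6 CPM (1.28 ± 0.39, adjusted p = 0.0306), and *Gsdmd* at 13.3, 15.6, 17.3, and 19.4 CPM (0.67 ± 0.21, adjusted p = 0.0322). These last calls were lost in 5 of 24 and 6 of 25 alternatives, for *Casp1* without control mouse 1 or 3 or mouse 2 or 4 (adjusted p = 0.0707 to 0.181) and for *Gsdmd* without control mouse 1 or 2 or mouse 2, 3, or 4 (adjusted p = 0.0544 to 0.132). The 24 h call of *Il18* in the myeloid class was lost without control mouse 1 or 3 (1.12 and 0.90, adjusted p = 0.0935 and 0.15) or mouse 2 (0.78, adjusted p = 0.257), and in 2 other alternatives. No member's response differed from the myeloid response at 24 or 72 h in the interaction test, which called 0.73%, 0.739%, 1.78%, and 0.309% of genes at 24 h and 0.224%, 0.0468%, 0.0561%, and 0.0281% at 72 h in the HSC-like, LMPP-like, erythroid, and MK classes.

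**Figure D3:**
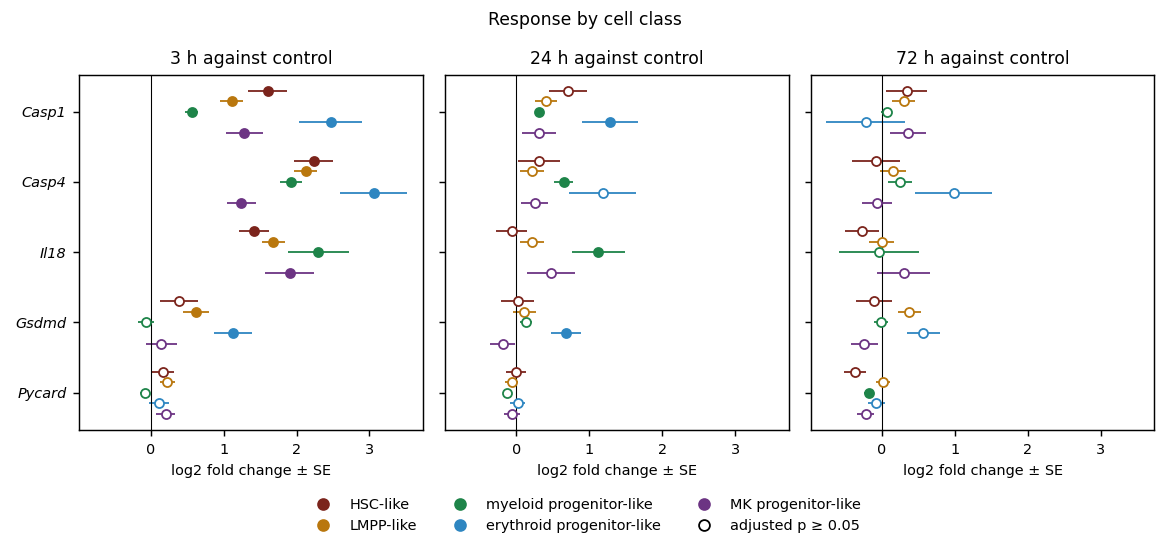
Log2 fold change against control ± SE (x axis) of *Casp1*, *Casp4*, *Il18*, *Gsdmd*, and *Pycard* in 5 cell classes at 3, 24, and 72 h; filled points have an adjusted p under 0.05, and *Il18* was not tested in the erythroid class. At 3 h the points of *Casp1* run from 0.56 in the myeloid to 2.47 in the erythroid class, and by 72 h 1 point is filled, *Pycard* in the myeloid class.

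Within the myeloid class, *Casp4* rose at 3 h in cluster 1 (log2 fold change 2.15 ± 0.26, adjusted p = 3.49e-08, edgeR's quasi-likelihood test) and in the monocyte-directed cluster 4 (2.32 ± 0.23, adjusted p = 3.15e-10), and *Casp1* rose in both (0.53 ± 0.15, adjusted p = 0.00903, and 0.42 ± 0.13, adjusted p = 0.0246). The neutrophil-directed cluster 8 kept 17 cells at 3 h of the 180 in controls, and no member was called there. The log2 fold change there was 0.96 ± 0.31 for *Casp1* (adjusted p = 0.0528, edgeR's quasi-likelihood test) and 1.44 ± 0.49 for *Casp4* (adjusted p = 0.082). *Pycard* and *Gsdmd* were at -0.32 ± 0.22 and -0.10 ± 0.38. The mean *Casp4* level of cluster 8 was 13.3 ± 8.89 CPM in controls (n = 4) and 47.4 ± 27.8 CPM at 3 h (n = 3 mice, 19 UMIs). In clusters 1 to 12, in order, 12.6, 15.4, 10.7, 17, 17.5, 11.9, 14.9, 5.34, 12.6, 11, 8.6, and 7.89% of the genes tested were called at 3 h. The members called at 3 h were all higher, *Casp4* in 10 and *Casp1* in 9 of the 11 clusters where each was tested, *Il18* in 5 of 5, and *Gsdmd* in 3 of 12.

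The cells with an *Nlrp3*, *Il1b*, or *Il18* UMI fell in different classes. *Il1b* was found in the MK class: 129 of its 176 UMIs (73.3%), in 105 of 1362 cells (7.71%, 95% Wilson interval 6.41 to 9.25%). The myeloid class had 11 of 1981 cells (0.555%), although its cells are deeper, with a median of 35277 UMIs in cluster 1 against 13756.5 in the MK cluster 3 of control mice. In the MK class *Il1b* was at 3.06, 11.1, and 6.08 CPM in controls and 12.8, 4.22, 4.84, and 3.12 CPM at 3 h, and the test found no change at any time (adjusted p = 0.889, 0.797, and 0.895, edgeR's quasi-likelihood test).

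*Nlrp3* UMIs lay mostly in the myeloid class: 103 of 168 (61.3%), in 90 of 1981 cells (4.54%, 95% Wilson interval 3.71 to 5.55%). Of the 103, 70 were in the monocyte-directed cluster 4, 30 in cluster 1, and 3 in cluster 8. These shares are not scaled to depth. Pooled over control cells without TMM, *Nlrp3* was at 3.01 CPM in cluster 4, 1.14 CPM in cluster 1, and 0.474 CPM in cluster 8. It was at 1.46 CPM (3 UMIs) in the HSC-like class and 1.66 CPM in the unnamed cluster 2. In the LMPP-like clusters 5 and 11 it was at 0.349 and 0.665 CPM, and in the MK and erythroid clusters at 0. The few monocyte or dendritic cell-like cells had the largest share, 11 of 52 cells (21.2%, 12.2 to 34.0%), and 35 of those 52 were control cells. Of 882 erythroid cells none had an *Nlrp3* UMI, which allows a share of cells with a UMI of up to 0.340% and sets no limit on cells that express the gene. *Il18* UMIs were in 365 of 1061 HSC-like cells (34.4%), 555 of 1875 LMPP-like cells (29.6%), 185 of 1362 MK cells (13.6%), and 129 of 1981 myeloid cells (6.51%). They were in 6 of 882 erythroid cells (0.680%), and the part of RNA from other cells in these counts was not tested. The Wilson intervals cover counting error only.

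**Figure D4:**
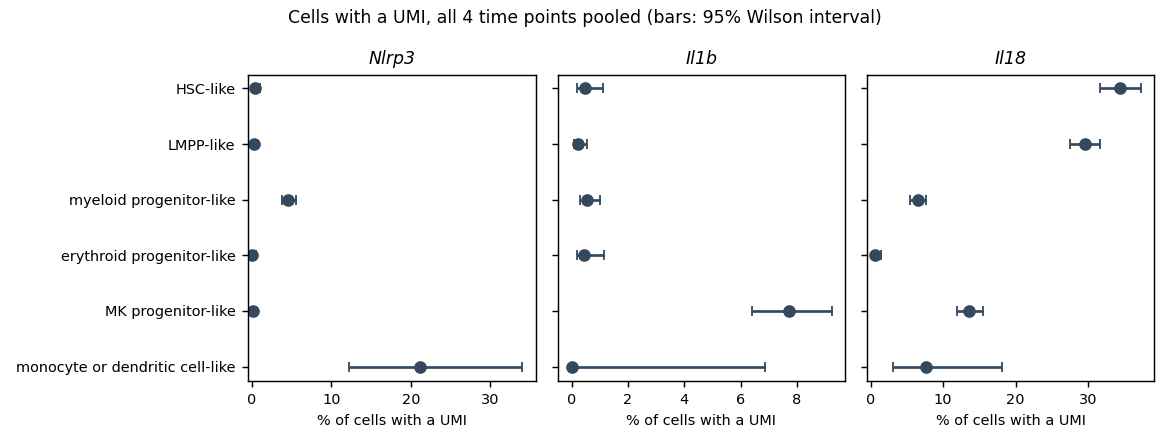
Share of cells with at least 1 UMI of *Nlrp3*, *Il1b*, or *Il18* (x axis, percent) in 6 cell classes with all 4 time points pooled; bars are 95% Wilson intervals, which cover counting error only. *Nlrp3* is seen mostly in the myeloid and the monocyte or dendritic cell-like classes, *Il1b* in the MK class at 7.71%, and *Il18* in the HSC-like and LMPP-like classes at 34.4% and 29.6%. The shares are not scaled to the depth of the classes.

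Mature cells that such a gate could still hold were looked for by lists of their markers. In the whole compartment the summed level of the 10 mature neutrophil genes was 61.7 to 95.2 CPM in controls and 61.7 to 70.8 CPM at 3 h. *Stfa2l1* was at 0 in controls and at all later times, *Ly6g* at 3, 24, and 72 h, and *Mmp9* at 3 h. The 10 mature monocyte or macrophage genes were at 17.2 to 41.7 CPM in controls and 19.8 to 27.1 CPM at 3 h. At 3 h, when *Casp1*, *Casp4*, and *Il18* were highest, both lists lay within the control range. The 11 monocyte or dendritic cell genes were below it, at 746 to 862 CPM against 985 to 1239 CPM, with *Cd209a* and *Siglech* at 0, and the 5 T or NK cell genes were at 291 to 388 CPM against 341 to 620 CPM, with *Cd3e* and *Gzma* at 0. These last lists were also high within progenitor classes, so their sums do not measure mature cells alone. In the myeloid class of controls the T or NK cell genes were at 546 to 1029 CPM, with *Cd3e* and *Gzma* at 0. In the HSC-like class of controls the monocyte or dendritic cell genes were at 1059 to 1750 CPM, with *Cd209a*, *Siglech*, and *Itgax* at 0. The part of mature cells in the members' values was not tested. The 5 B cell genes were at 38.1 to 49.4 CPM in controls and 28.3 to 31.1 CPM at 3 h. The HSC-like class of controls held 4 cells with B-lineage UMIs, and leaving out such cells changed no call of a member in any class.

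Other genes of the pathway were taken from 7 lists of 64 symbols, of which 59 were in the files and 49 were tested in the whole compartment. At 3 h, 22 were higher and 7 lower, where 38.8% of all genes were called, with a median log2 fold change of 0.12 against -0.03 over all genes. At 24 h, 16 were higher and 3 lower (28.3% of all genes called; median 0.09 against 0.00), and at 72 h 9 were higher and 8 lower (37.4% called; median -0.04 against 0.02), a share near that of all genes. The lists were written with earlier results of these data known.

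Among sensors and their helpers, 7 of 15 were higher and 2 lower at 3 h, when 38.8% of all genes were called and 19.7% were higher, the shares against which the counts of the other lists at 3 h also stand. The largest rises were of *Ifi204*, a DNA sensor of the p200 family (log2 fold change 6.21 ± 0.17, adjusted p = 7.79e-19, edgeR's quasi-likelihood test), and *Zbp1*, a sensor of Z-form nucleic acids (5.30 ± 0.15, adjusted p = 4.79e-18), which were still higher at 24 h (2.09 ± 0.21 and 1.75 ± 0.17) and not at 72 h (-0.72 ± 0.36 and -0.32 ± 0.23, adjusted p = 0.118 and 0.293). *Ifi204* belongs to a family of near-identical copies, so its counts are uncertain. *Mefv*, which encodes the sensor pyrin, was lower at all 3 times, at -1.14 ± 0.18 (adjusted p = 2.08e-05), -0.76 ± 0.13 (adjusted p = 0.000148), and -1.14 ± 0.15 (adjusted p = 3.81e-06). *Nlrc4*, a gene of the response to flagellin, was lower at 72 h (-0.74 ± 0.24, adjusted p = 0.0208). *Txnip*, which binds NLRP3, was higher at 72 h (0.79 ± 0.074, adjusted p = 3.59e-08).

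All 4 tested genes that free bacterial ligands for the non-canonical route were higher at 3 and 24 h, and at 72 h *Gbp2*, a guanylate-binding protein that lyses the vacuoles of bacteria, was (0.60 ± 0.12, adjusted p = 0.000697, edgeR's quasi-likelihood test). Of other caspases and gasdermins, 4 of 7 were higher and 1 lower at 3 h, and *Casp12*, which lies 8646 bases beyond *Casp4*, was among the higher at 72 h (0.58 ± 0.13, adjusted p = 0.00136). Of the inhibitors, 3 of 7 were higher and 2 lower at 3 h. *Il18bp*, the secreted decoy that binds IL-18, rose by 3.56 ± 0.18 at 3 h (adjusted p = 1.13e-13) and 1.34 ± 0.19 at 24 h (adjusted p = 1.71e-05), so the transcripts of *Il18* and of its antagonist were both higher at these times. *Serpinb1a*, an inhibitor of neutrophil proteases and caspases, was lower at 3 h (-0.56 ± 0.079, adjusted p = 4.8e-06), and *Dpp9*, which restrains NLRP1, at 24 h (-0.24 ± 0.059, adjusted p = 0.00479).

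Of the priming genes, 3 of 8 were higher and 1 lower at 3 h. The lower one was *Irf8*, a transcription factor of the monocyte lineage, at -1.12 ± 0.098 at 3 h (adjusted p = 3.32e-09, edgeR's quasi-likelihood test), -0.68 ± 0.085 at 24 h (adjusted p = 3.76e-06), and -0.59 ± 0.088 at 72 h (adjusted p = 2.13e-05). *Mefv* and *Irf8* are genes of myeloid cells, whose share of kept cells was lower at these times, and the part of that share in these values was not tested. Within the myeloid class, *Irf8* was called lower at 3 h, and none of the 8 priming genes was called lower at 24 or 72 h. None of the 13 sensors and helpers tested in that class was called lower at 3, 24, or 72 h. Of the cytokines and receptors in the whole compartment, none of 5 was higher and *Sigirr* was lower at 3 h, and 1 of 3 genes of membrane rupture and repair was higher.

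**Figure D5:**
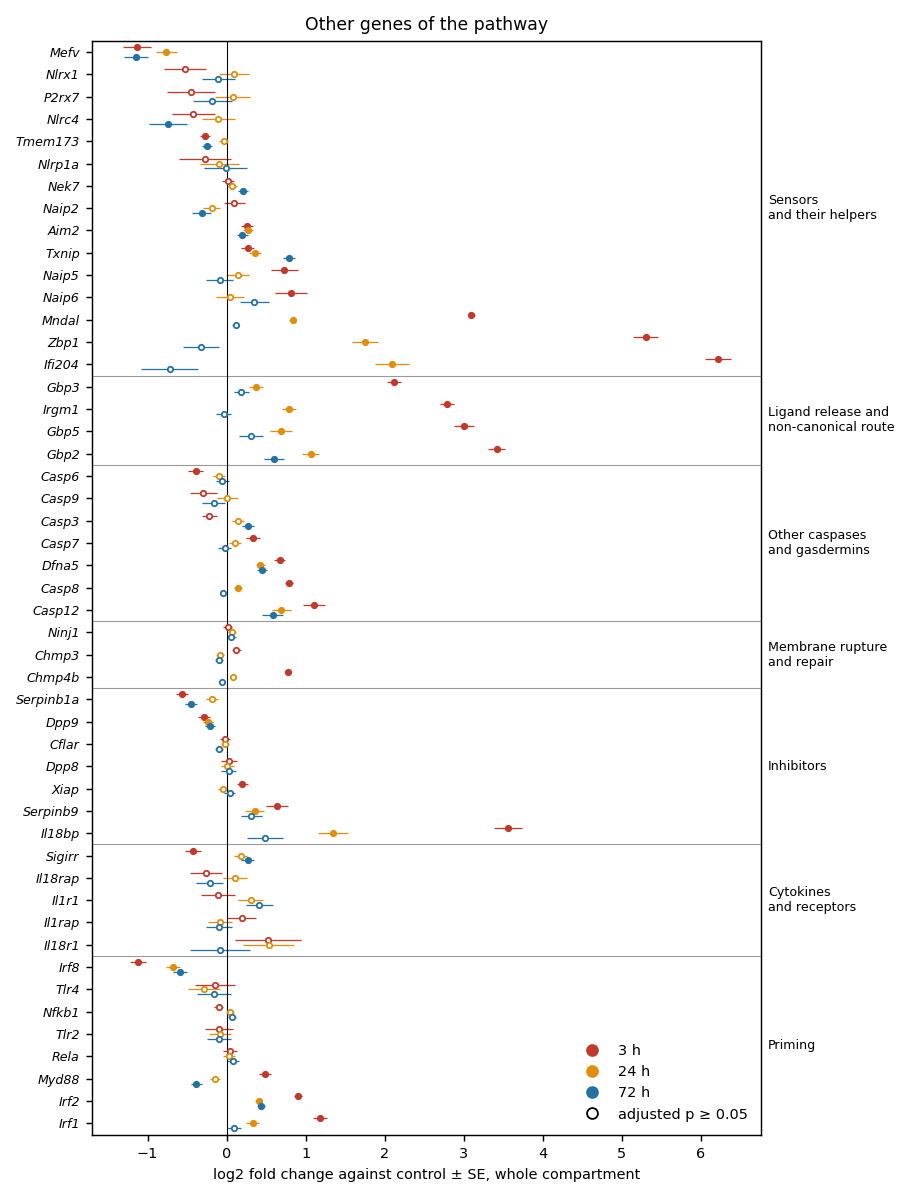
Log2 fold change against control ± SE (x axis) of the 49 tested genes of 7 pathway lists in the whole compartment at 3, 24, and 72 h after IFNα (4 mice per time point); filled points have an adjusted p under 0.05. At 3 h *Ifi204*, *Zbp1*, and *Il18bp* stand at 6.21, 5.30, and 3.56, whereas *Mefv* and *Irf8* are at -1.14 and -1.12.

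In the myeloid class, 42 of the listed genes were tested, and 13 were higher and 4 lower at 3 h, 11 higher and none lower at 24 h, and 5 higher and 1 lower at 72 h, where 24.3%, 15.2%, and 14.6% of all genes were called. The count at 72 h is near that share. The largest rises at 3 h were of *Ifi204* (5.71 ± 0.22, adjusted p = 1.38e-20, edgeR's quasi-likelihood test), *Zbp1* (5.28 ± 0.17, adjusted p = 1.54e-22), and *Mndal*, another p200 gene (2.94 ± 0.071, adjusted p = 4.06e-26). The largest falls at 3 h were of *Sigirr*, a negative regulator of IL-1 family receptors (-0.95 ± 0.20, adjusted p = 0.000494), *Irf8* (-0.58 ± 0.098, adjusted p = 2.48e-05), and *Nfkb1* (-0.33 ± 0.10, adjusted p = 0.014). At 24 h *Ifi204* (2.82 ± 0.26), *Zbp1* (2.37 ± 0.20), and *Gbp2* (1.61 ± 0.24) led. At 72 h *Gbp3* (0.49 ± 0.11, adjusted p = 0.00129), *Dfna5*, which encodes gasdermin E (0.49 ± 0.093, adjusted p = 0.000258), and *Txnip* (0.49 ± 0.11, adjusted p = 0.00249) were higher and *Serpinb1a* was lower (-0.19 ± 0.065, adjusted p = 0.0401).

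Across the 20 combinations of class and time point, the genes whose mean log2 CPM was most like that of a member were found among 7248 other genes, as a description over points that share libraries. *Casp4* was most like *Grcc10* (Pearson r = 0.978), *Ifi203* (0.957), and *Epsti1* (0.952), and *Il18* most like *AW112010* (0.972), *Bbx* (0.971), and *Gm12216* (0.969). *Casp1* and *Gsdmd* had the same gene at the top, *Itm2b*, at 0.956 and 0.959, followed by *Actr2* (0.95) and *Tiam1* (0.949) for *Casp1* and *Pstpip1* (0.941) and *Cpne3* (0.938) for *Gsdmd*. *Pycard* was most like *Cst3* (0.962), *Tm6sf1* (0.958), and *Adssl1* (0.954). *Il1b* was most like *Fermt3* (0.87), *Pf4* (0.863), a platelet chemokine that marks the MK class, and *Chchd6* (0.859), and *Nlrp3* most like *Xbp1* (0.833) and *Snd1* (0.819). In genes as sparse as *Nlrp3* and *Il1b* these values carry little weight.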

How the data were processed

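Single-cell libraries (10x Chromium 3′ v3.1) of Lin- c-Kit+ bone marrow cells were made by the authors, 1 per time point, with a hashtag library each. The authors deposited raw UMI counts per gene and barcode, which the labels and methods assign to Cell Ranger 3.1.0 on mm10, and counts per hashtag. The methods do not say that reads were counted by strand. Hashtags were assigned here by the rule of the Seurat demultiplexing that the labels name, multiplets and untagged barcodes were removed, and cells with at most 5% mitochondrial UMIs and at least 700 genes were kept: 2474, 1661, 3462, and 2449 cells of 3190, 2454, 4346, and 3320 barcodes, the cell numbers that the methods state. Doublets of 1 mouse remain, and at most 1 kept barcode was shared between any pair of libraries.

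Control cells were clustered (scanpy 1.11.5, leidenalg 0.10.2, 500 variable genes, resolution 0.8) and clusters named from marker lists. Labels were transferred to treated cells after mutual nearest neighbor correction, with the 7 genes left out. UMIs were summed per mouse, and tested with edgeR 4.0.16 (filterByExpr, TMM, quasi-likelihood F-test over all 16 mice, Benjamini-Hochberg adjustment over all genes tested, R 4.3.3); a mouse needed 10 cells in a class and 3 in a cluster. Differences between classes were tested as an interaction with the mouse as a block. The test was run on simulated counts first. The smallest mouse had 1102706 UMIs.

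All 7 genes are named. Of the pathway lists, the up to 3 largest rises and falls with an adjusted p under 0.05 are named per time point in the whole compartment and the myeloid class, and of the genes alike in pattern the first 3, of which 1 is not reported here. The members and lists were chosen with earlier results of these data known. Gene positions are from GENCODE vM21 on GRCm38 and promoters from RefSeq. Alternatives were other scalings, no filter, DESeq2 1.42.0, a likelihood ratio test, other label transfers, a mitochondrial limit of 10%, cells thinned to 5000 UMIs, the hashtag number as a block, each mouse left out, and, chosen after the data were seen, cells with 2 or more B-lineage UMIs left out.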

Additional observations from a re-analysis of the deposited data

Results flagged for a closer look

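*Casp1* rose more at 3 h in the HSC-like than in the myeloid progenitor-like class, by 1.09 on the log2 scale, and more in the erythroid progenitor-like than in the myeloid progenitor-like class, by 1.82. *Gsdmd* rose more in the erythroid than in the myeloid class, by 1.12. Each passed the interaction test in edgeR (adjusted p = 0.0317, 0.00217, and 0.0166). Cluster 12 made up a smaller share of the erythroid class at 3 h than in controls. The part of that mix in the erythroid differences was not tested.

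In 5 of 108 groups of 4 mice, 1 mouse was set apart from the others by a gap past Dixon's critical value, and chance gives about 1 such group in 20. *Casp1* in the myeloid class at 24 h was at 62.1 CPM in mouse 3 and at 58.3 to 58.8 CPM in the other mice. *Gsdmd* in the LMPP-like class was at 59.7 CPM in mouse 1 at 3 h (others 44.7 to 46.2 CPM) and at 30.2 CPM in mouse 2 at 72 h (others 42.8 to 45.0 CPM). *Gsdmd* in the myeloid class at 24 h was at 46.7 CPM in mouse 4 (others 39.9 to 40.7 CPM). *Nlrp3* in the whole compartment at 24 h was at 1.34 CPM in mouse 4 (others 0.202 to 0.368 CPM).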

How the results depend on the processing

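No value for a member that passed the test changed its sign in any alternative. Of the counts of changed members, 199 of 212 stayed within 1.5 times the reported count under other processing and 334 of 356 with a mouse left out. With cells thinned to 5000 UMIs, the counts became 0 in the erythroid class at 3 h (reported 3) and at 24 h (reported 2), where *Pycard* alone still had enough UMIs to be tested, 0 in the myeloid class at 24 h (reported 3) and at 72 h (reported 1), 1 in the myeloid class at 3 h (reported 3), where *Il18* was no longer tested, and 1 for members whose response differed from the myeloid response at 3 h (reported 2). In the erythroid class at 24 h the count was 0 with DESeq2 and 1 with the hashtag number as a replicate block. The single call in the myeloid class at 72 h, *Pycard*, became 0 with DESeq2, with RLE size factors, with either other label transfer, and with a mitochondrial limit of 10%.

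With each mouse left out in turn, the counts ranged from 4 to 5 at 3 h and at 24 h and from 3 to 5 between 3 and 24 h in the whole compartment, 3 to 5 in the LMPP-like class at 3 h, 2 to 3 in the myeloid class at 24 h, 0 to 1 there at 72 h, 0 to 2 in the erythroid class at 24 h, and 1 to 2 for members whose response differed from the myeloid response at 3 h. *Pycard* in the whole compartment at 3 h passed the test with library size alone (-0.28, adjusted p = 0.000131), without the filter (-0.15, adjusted p = 0.0277), and with the block (-0.13, adjusted p = 0.0461), all in edgeR. It also passed there without control mouse 2 or 3, mouse 1 or 4 at 3 h, or mouse 3 at 72 h (between -0.14 and -0.17, adjusted p = 0.0162 to 0.045).

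The labels give no replicate numbers, and whether hashtag numbers pair the mice is not known. Deviations of mice with the same number correlated between -0.0582 and 0.0946 over 24 pairs (median 0.0104). Those with different numbers correlated between -0.118 and 0.141 over 72 (median -0.0073). Such weak correlations of noisy values cannot show whether mice were paired. With the replicate block, *Nlrp3* at 24 h in the whole compartment was at -1.35 (adjusted p = 0.0384, edgeR).

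Over all genes, thinning lowered the number called in the whole compartment from 4675 to 2612 at 3 h, 3405 to 1237 at 24 h, and 4501 to 1865 at 72 h, and in the myeloid class from 2348 to 836, 1469 to 425, and 1407 to 353. DESeq2 called 783 and 835 in the myeloid class at 24 and 72 h. With library size alone, the share of calls that were higher at 3 h was 36.6% in place of 74.2% in the HSC-like, 30.1% in place of 64.5% in the LMPP-like, 28.3% in place of 56.5% in the myeloid, 27.1% in place of 70.5% in the erythroid, and 36.8% in place of 78% in the MK class. *Nlrp3* and *Il1b* had at most 29 and 28 UMIs in any mouse, which limits their precision.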
